A study of Mus musculus with 3 samples.

Results

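The genes of 10 secreted proteins of the cardiac matrix were followed, namely Spon1, Spon2, Postn, Thbs1, Thbs4, Sparc, Tnc, Ctgf, Spp1 and Tgfb2. They were chosen by gene name as spondins and matricellular proteins of cardiac remodelling, and the choice was made with their measured ratios known, so every ratio of these 10 genes is given as a description without a test. The arrays carried 18 probes for them out of 41174 gene probes, and 15 of the 18 passed the signal minimum, against 29576 of all gene probes. All 10 genes kept at least 1 such probe, out of 20186 genes.

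Hearts of C57/BL6 mice at 2 months of age were compared on 3 two-colour Agilent arrays of the mouse genome. By the sample labels, the Cy5 channel of each array held Lrrc10-/- RNA and the Cy3 channel Lrrc10+/+ (WT) RNA, each pooled from the hearts of 2 mice, and no further treatment is named. Dyes were not swapped, the arrays shared a slide, and the WT RNA is described as a reference pool, so a dye effect cannot be told apart from genotype, and if 1 WT pool served all arrays the spread among WT pools does not enter any test. Lrrc10 encodes a leucine-rich repeat protein of cardiomyocytes.

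The deleted gene went against these labels. The Lrrc10 probe read 476, 443 and 352 units of processed signal in Cy3 on arrays 1, 2 and 3, and 14283, 20828 and 17703 units in Cy5. The channel labelled Lrrc10-/- was thus 41.4-fold the brighter, with log2 ratios of Cy5 over Cy3 of 4.91, 5.56 and 5.65 (5.37 ± 0.41, SD, n = 3 arrays). Where the probe lies relative to the deleted sequence was not examined. The direction read from the labels is also opposite to the one the study states for Myh7, the β-myosin heavy chain. Every value is therefore given by channel, as the channel labelled Lrrc10-/- (Cy5) and the channel labelled Lrrc10+/+ (Cy3), and no genotype is assigned to a direction. All log2 ratios are Cy5 over Cy3, so a negative ratio means that Cy3 was brighter.

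Matricellular proteins are secreted into the extracellular matrix, where they bind matrix fibres, growth factors and cell receptors and tune how cells respond to the matrix without bearing much load themselves. Several of them are low in the healthy adult heart and are known to be re-expressed after infarction, pressure overload or inflammation. Transforming growth factor β is released from latent complexes in the matrix, signals through SMAD proteins in fibroblasts, and drives the transcription of collagens and of several matricellular genes. In RNA of hearts, fewer cells of a type and less RNA per cell cannot be told apart.

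Among the 10 genes, each read by its probe with the highest mean signal, Spon2 was brighter in the channel labelled Lrrc10+/+ on all arrays by a mean of 4.75-fold, and Ctgf by 1.5-fold. Spp1 was brighter in the channel labelled Lrrc10-/- on all arrays, by a mean of 2.09-fold. The other 7 genes changed sign between arrays. Among all 20186 genes, the ratio was above 0 on every array for 9.47% and below 0 on every array for 12.3%. Mean ratios past 2-fold were found for 2 of the 10 genes, Spon2 and Spp1, where 0.49% of all genes were past it in Cy5 and 0.431% in Cy3. Without array 1, where no Cy3 spot of Spp1 was well above background, the mean log2 ratio of Spp1 was 0.74, which is under 2-fold. The median log2 ratio of the 10 genes was 0.07, or 0.12 without Spon2, and that of all genes was -0.01. The ratios that chose these genes fix such counts, and nothing is read from them.

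**Figure D1:**
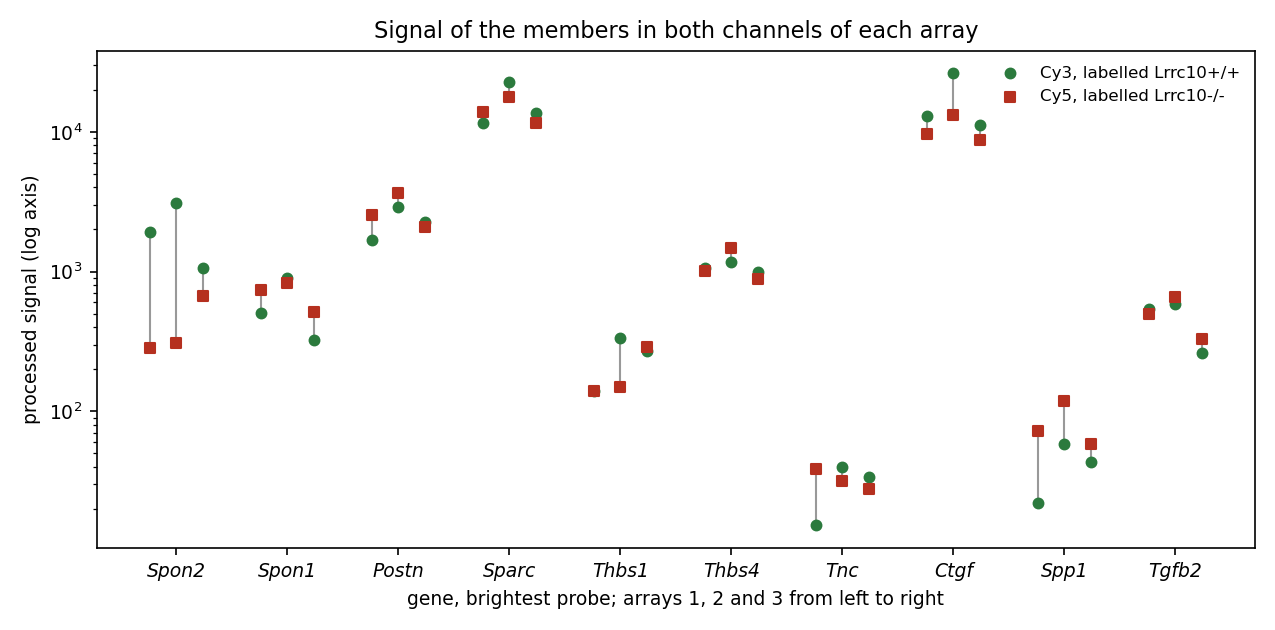
Processed signal (units of the scanner software, log axis) of the 10 genes in the Cy3 channel (circles, labelled Lrrc10+/+) and the Cy5 channel (squares, labelled Lrrc10-/-), for arrays 1, 2 and 3 from left to right within each gene; a grey line joins the channels of an array. Spon2 shows the longest lines, on arrays 1 and 2, while Thbs4 and Tgfb2 show short ones; levels of different genes come from different probes and are not comparable.

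Spon2 (spondin 2, also called mindin) is a secreted protein of the spondin family that binds bacterial surface molecules and integrins, and it is known to limit hypertrophy and fibrosis in mouse hearts under pressure overload. Its representative probe, A_52_P381484, read 1903, 3096 and 1063 units in Cy3 and 282, 308 and 673 units in Cy5 on arrays 1, 2 and 3. The log2 ratios were -2.75, -3.33 and -0.66, with a mean of -2.25 ± 1.41 (SD, n = 3 arrays). Array 3 held both the lowest Cy3 reading and the highest Cy5 reading, so the fold of Cy3 over Cy5 was 6.74 and 10.1 on arrays 1 and 2 and 1.58 on array 3. After the channels of all arrays were brought to a common intensity distribution, the Cy3 values were 2025, 2443 and 1278 and the Cy5 values 300.3, 243 and 808. The lowest Cy3 value thus stayed above the highest Cy5 value, as it did for 4.6% of all genes.

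A second Spon2 probe, A_51_P434017, gave the same picture on arrays 1 and 2 and a different one on array 3. It read 595, 872 and 184 units in Cy3 and 109.7, 102 and 221 units in Cy5, for log2 ratios of -2.44, -3.10 and 0.26 (-1.76 ± 1.78, SD, n = 3 arrays). On array 3 this probe was brighter in Cy5, and its channels overlapped. Both probes were well above background in each channel of each array, and neither was saturated. The probes are 60 bases long and carry the same RefSeq transcript in the array's annotation. Their first 30 bases are shown because the probes disagree in sign on array 3, and to show that they read different stretches of the transcript. Capitals mark the longest run of bases common to both whole probes, which is 7 bases:
Spon2 A_52_P381484: ccacaggaggaacaaacGAAGAGGggcagt
Spon2 A_51_P434017: cgagcttgaaGAAGAGGccgagtgtgcccc
The GC content is 51.7% in the first and 55% in the second. A run of 20 bases shared with either probe was found in 0 other probes of the array, so the common low ratios on arrays 1 and 2 come from separate sequences.

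**Figure D2:**
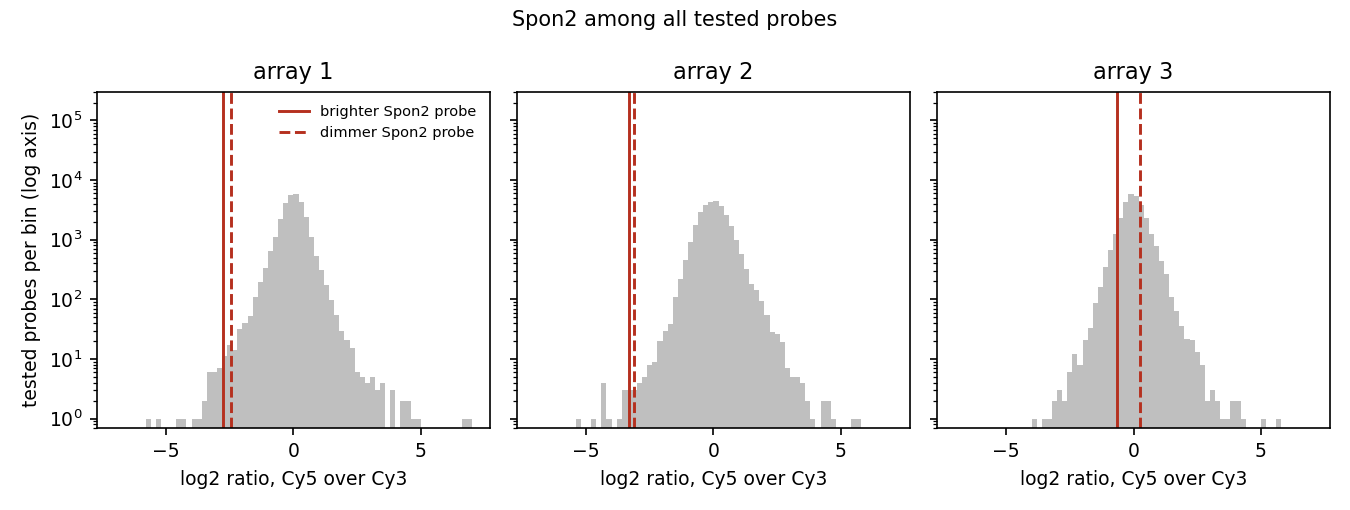
Distribution of the log2 ratio Cy5 over Cy3 of the 29576 tested probes on each array (grey, number of probes per bin on a log axis), with the ratios of the representative Spon2 probe (solid line) and the second Spon2 probe (dashed line). Both lines lie in the far left tail on arrays 1 and 2, and on array 3 they lie inside the main body at -0.66 and 0.26.

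The place of Spon2 among all probes followed the same split. A ratio as low as that of the representative probe was reached by 0.0981% of the tested probes on array 1, by 0.044% on array 2 and by 7.26% on array 3. For the second probe these shares were 0.169%, 0.0575% and 73.8%. By the mean over arrays, the representative probe was the lowest but 2 of all 29576, at rank 3, and the second probe had rank 22. Without array 3 the mean log2 ratio of the representative probe was -3.04, and without array 1 or array 2 it was -2.0 or -1.71. With background modelled by normexp on all arrays, it was -1.64 with loess and -1.35 with median centring.

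The 5 genes whose 3 ratios lay nearest to those of Spon2, by Euclidean distance among 17580 genes well above background, had the ratio closest to 0 on array 3, which the choice by likeness to Spon2 fixes. Arntl, the core clock activator also called Bmal1, was the nearest, with log2 ratios of -2.87, -2.82 and -0.29 and a distance of 0.64 on the log2 scale. Myh7, the slow β-myosin heavy chain, lay at a distance of 1.09, with ratios of -1.99, -2.58 and -0.88. Its probe was saturated on at least 1 array. The others were 1700008P20Rik (Tescl in current annotation) at -3.25, -2.67 and -0.41, the array's ENSMUSG00000057802 at -2.13, -2.66 and -0.30, and A630005I04Rik at -2.71, -2.21 and -0.24. With 3 arrays, likeness of this kind is a description of the same 3 hybridisations.

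Spon1 (spondin 1, or F-spondin), the other spondin on the list, is a secreted protein best known from the developing nervous system, where it binds the amyloid precursor protein and lipoprotein receptors. Its representative probe read 506, 906 and 324 units in Cy3 and 733, 832 and 509.6 units in Cy5. The log2 ratios of 0.53, -0.12 and 0.65 had a mean of 0.35 ± 0.42 (SD, n = 3 arrays). The second Spon1 probe, which the array assigns to a cDNA clone, read 92.5, 227 and 133 units in Cy3 and 149.8, 139 and 118 units in Cy5, for ratios of 0.70, -0.71 and -0.17. Its mean of -0.06 ± 0.71 had the other sign, so the Spon1 probes did not share a direction, and neither lay near the ratios of Spon2.

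Spp1 (osteopontin) is an acidic phosphoprotein made by activated macrophages and by stressed cardiomyocytes, which binds integrins and CD44. It was read by 1 probe spotted 10 times on each array, and the spots averaged 22.1, 57.8 and 43.1 units in Cy3 and 72.5, 119 and 58.3 units in Cy5. The log2 ratios were 1.71, 1.04 and 0.44, with a mean of 1.06 ± 0.64 (SD, n = 3 arrays). All 10 spots were brighter in Cy5 on each array. The SD among spots was 0.42, 0.17 and 0.18 on arrays 1, 2 and 3, and the spots ranged from 1.22 to 2.66, from 0.78 to 1.29 and from 0.24 to 0.90. Repeated spots of one labelled RNA measure the precision of the array and not the spread among hearts. In Cy3 on array 1, 0 of 10 spots were well above background, so the ratio there rests on a signal at the background, and the other channels and arrays had 10 of 10. After the common levelling the channels did not overlap, as in 3.55% of all genes. The first 30 bases of the 60-base Spp1 probe, shown because every Spp1 value rests on it, were as follows, in lower case throughout:
Spp1 A_51_P358765: cttagtctgttgtttcatgcaaacaccgtt
The probe signals lie near the added offset of 50 when background is modelled with normexp, and the mean log2 ratio was then 0.16 with loess and 0.14 with median centring. With median centring the median of all tested probes was 0.15, above the Spp1 mean, and Spp1 was at 0.0054 on array 3.

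**Figure D3:**
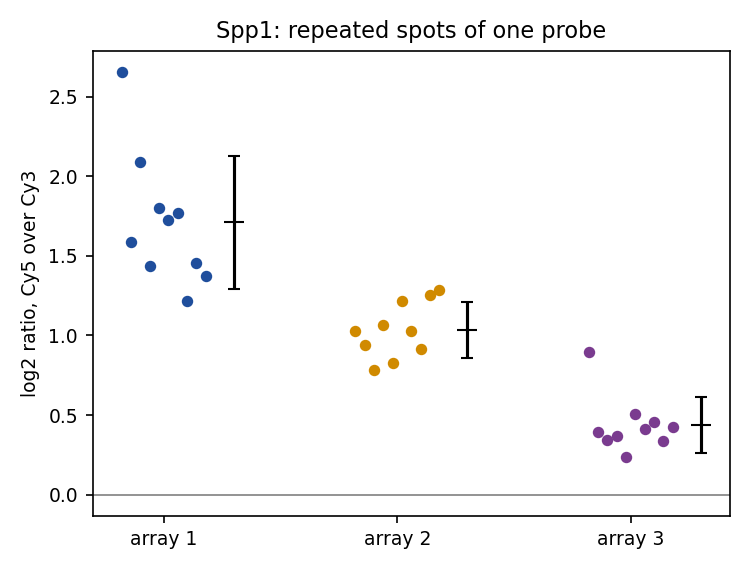
Log2 ratio Cy5 over Cy3 of the 10 spots of the Spp1 probe on each array (points) with their mean and SD (bars). All spots lie above 0, from 1.22 to 2.66 on array 1 down to 0.24 to 0.90 on array 3.

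Ctgf (connective tissue growth factor, Ccn2 in current annotation) is a matricellular protein of the CCN family, transcribed in response to transforming growth factor β and to the mechanosensitive YAP and TAZ coactivators. Its probe read 12989, 26202 and 11168 units in Cy3 and 9683, 13164 and 8778 units in Cy5. The log2 ratios were -0.42, -0.99 and -0.35 (-0.59 ± 0.35, SD, n = 3 arrays), so Ctgf was brighter in Cy3 by 1.34-fold, 1.99-fold and 1.27-fold. The levelled channels did not overlap, with Cy3 the higher, as in 4.6% of all genes. This direction depended on the processing, since normexp with loess gave -0.07, -0.69 and 0.03, with a mean still below 0, and normexp with median centring gave 0.30, -0.31 and 0.59, with a mean above 0.

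**Figure D4:**
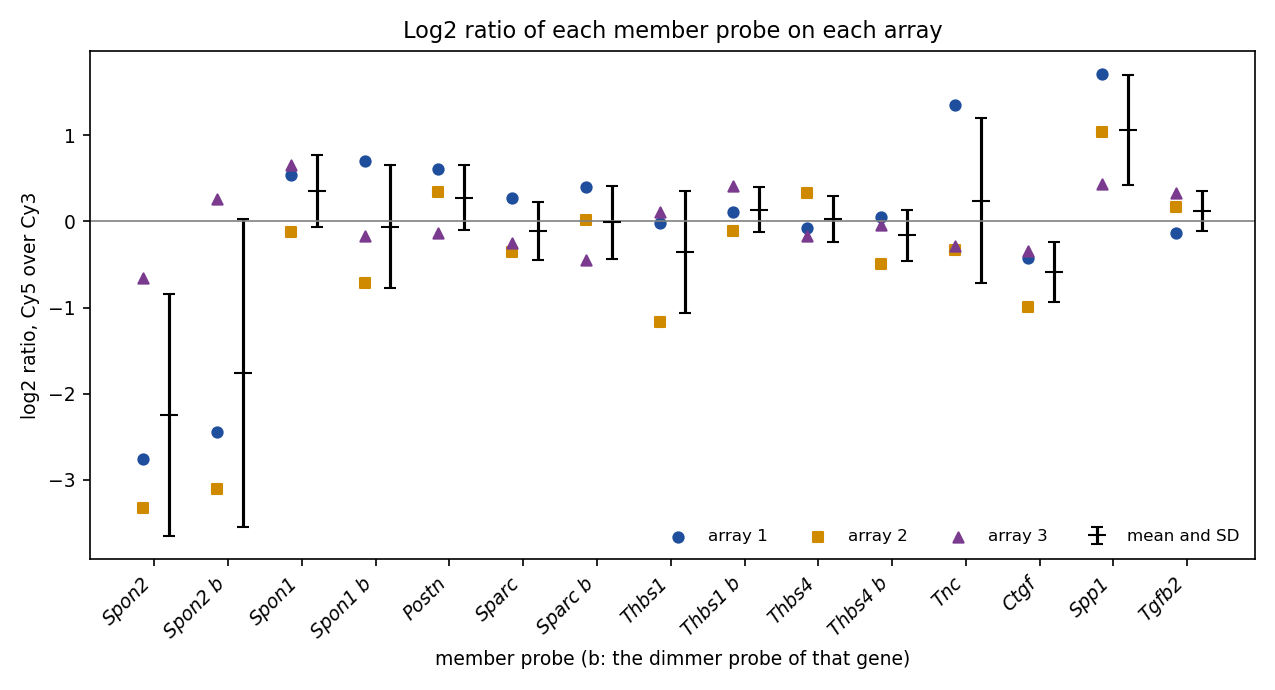
Log2 ratio Cy5 over Cy3 of the 15 tested probes of the 10 genes on arrays 1, 2 and 3 (points), with the mean and SD over the arrays (bars); b marks a gene's second probe. Spon2 and Ctgf lie below 0 and Spp1 above 0 on all arrays for the representative probe, and the other genes have points on both sides of 0.

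Tgfb2 (transforming growth factor β2) is the only growth factor ligand on the list and acts in the formation of heart valves and septa. It read 542, 589.7 and 263 units in Cy3 and 493, 662 and 330.3 units in Cy5. The log2 ratios of -0.14, 0.17 and 0.33 averaged 0.12 ± 0.24 (SD, n = 3 arrays), which was the smallest SD among the representative probes of the 10 genes. Its channels crossed between array 1 and the others.

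Postn and Sparc act on the assembly of collagen fibres. Postn (periostin), which marks activated fibroblasts, read 1673, 2890.3 and 2280 units in Cy3 and 2558, 3658 and 2079.8 units in Cy5. The log2 ratios of 0.61, 0.34 and -0.13 gave 0.27 ± 0.38 (SD, n = 3 arrays), with Cy5 the brighter channel on arrays 1 and 2. Sparc (osteonectin), a collagen-binding glycoprotein, read 11527, 22553 and 13715 units in Cy3 and 13954, 17676 and 11526 units in Cy5, for ratios of 0.28, -0.35 and -0.25 (-0.11 ± 0.34). The second Sparc probe gave ratios of 0.40, 0.02 and -0.45 (-0.01 ± 0.43, SD, n = 3 arrays). Both Sparc probes were brighter in Cy5 on array 1 and in Cy3 on array 3. With normexp and median centring the representative Sparc probe moved to 0.65, so no direction is given for Sparc.

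The thrombospondins are large glycoproteins, of which Thbs1 is an activator of latent transforming growth factor β and Thbs4 is known to act in the matrix and the endoplasmic reticulum of stressed hearts. Thbs1 read 140.0, 336 and 269 units in Cy3 and 139, 149.98 and 290.5 units in Cy5. Only array 2 showed a gap, with log2 ratios of -0.01, -1.16 and 0.11 and a mean of -0.36 ± 0.70 (SD, n = 3 arrays). The second Thbs1 probe read between 28.3 and 57.7 units in both channels, with ratios of 0.11, -0.11 and 0.41, and the gap on array 2 was not repeated there. Another Thbs1 probe was not well above background on any array. Thbs4 read 1060.5, 1177 and 998 units in Cy3 and 1002, 1481 and 890.3 units in Cy5. The Thbs4 ratios of -0.08, 0.33 and -0.17 averaged 0.03 ± 0.27, and its second probe gave 0.05, -0.50 and -0.04 (-0.16 ± 0.29, SD, n = 3 arrays). The Thbs4 probes thus disagreed in sign on arrays 1 and 2.

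Tnc (tenascin-C), a large glycoprotein of developing and injured tissue, gave signals near the background. Of its 3 probes, 2 were not well above background in either channel on any array and fell under the signal minimum. The remaining probe read 15.3, 39.9 and 33.7 units in Cy3 and 38.8, 31.7 and 27.5 units in Cy5, and the Cy3 spot of array 1 was not well above background. Its log2 ratios of 1.35, -0.33 and -0.29 (0.24 ± 0.96, SD, n = 3 arrays) were above 0 only on that array.

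The 3 arrays did not share a shift of the 10 genes. Their median log2 ratio was 0.13 on array 1, -0.23 on array 2 and -0.15 on array 3, where all genes had medians of 0.0041, 0.04 and -0.06. Cy5 was brighter for 5, 4 and 4 of the 10 genes on arrays 1, 2 and 3. The median SD over arrays was 0.40 for the 10 genes and 0.37 for all genes. Arrays also differed from each other as wholes, as the log2 ratios of all tested probes correlated at 0.10 between arrays 1 and 2, -0.04 between arrays 1 and 3 and -0.18 between arrays 2 and 3 (Pearson's r across probes, which are not replicates).

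Genes that signal with, bind to or remodel the same matrix were tested in the fit across all probes. Of 137 such genes, limma called 0 at an adjusted p under 0.05 (lowest adjusted p = 1.00), beside 2 probes (0.00676%) called among all 29576, Lrrc10 and 4930564B18Rik, both brighter in Cy5. At an unadjusted p under 0.05, 3 of the 137 genes had the higher signal in Cy5 and 8 had it in Cy3, where the shares over all genes were 1.55% and 1.79%. Without array 3, where limma called 1.84% of all tested probes, 4 of the 137 genes were called, among them Loxl4, Eln and Fbn2, whose dim probe was not well above background throughout. These lists, like the 10 genes, were compiled with earlier results of these arrays known.

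In the transforming growth factor β pathway, all 3 ratios were above 0 for 5 of 29 tested genes, below 0 for 2 and of mixed sign for 22, with a median log2 ratio of 0.08. Skil, a SMAD repressor, averaged 0.45 ± 0.35 and Smad2, a signal transducer of the pathway, 0.36 ± 0.20. In the other direction lay the coreceptor Eng (endoglin) at -0.46 ± 0.20 and the type II receptor Tgfbr2 at -0.22 ± 0.20.

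Among other matricellular proteins, all 3 ratios lay above 0 for 1 of 25 tested genes, below 0 for 4 and on both sides for 20 (median 0.01). Comp, the cartilage thrombospondin, had log2 ratios of -0.36, -1.11 and -1.01 (-0.83 ± 0.41, SD, n = 3 arrays, limma unadjusted p = 0.0080). Rspo1, a WNT agonist with a thrombospondin repeat, averaged -0.61 ± 0.30, and Smoc1, of the Sparc family, -0.53 ± 0.11. Nov (Ccn3), of the Ctgf family, averaged 0.58 ± 0.59 and was the gene brighter in Cy5 on all arrays.

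Among receptors of the 10 proteins, 4 of 24 tested genes had all 3 ratios above 0, 2 below 0 and 18 on both sides (median 0.02). The integrin subunits Itgav and Itgb3, which together bind Spp1 and Postn, averaged 0.39 ± 0.10 and 0.53 ± 0.33 on the log2 scale, and Cd44, a hyaluronan receptor that also binds Spp1, 0.36 ± 0.15. The lowest limma unadjusted p among these was 0.039, for Itgb3. Stab1, an endocytic receptor of Sparc, averaged -0.39 ± 0.17, and Ptprz1, a tenascin-binding phosphatase, -0.53 ± 0.51 on a probe that was saturated on 2 arrays in each channel.

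Of 40 tested genes of matrix remodelling, 3 had all ratios above 0, 6 had all below 0 and 31 had both signs (median -0.03). Eln (elastin) had log2 ratios of -0.71, -1.42 and -0.34, with a mean of -0.82 ± 0.55 (SD, n = 3 arrays). The matrix proteases Mmp3 and Mmp14 averaged -0.77 ± 0.45 and -0.75 ± 0.33, with a limma unadjusted p of 0.0126 for Mmp3 and 0.0061 for Mmp14. Brighter in Cy5 on all arrays were Plod2, a collagen lysyl hydroxylase, at 0.46 ± 0.40, the protease inhibitor Timp2 at 0.41 ± 0.23 and the lysyl oxidase Loxl2 at 0.14 ± 0.12. Of 19 tested fibroblast genes, 1 had all ratios above 0 (Scara5, 0.33 ± 0.28), 2 below 0 (Pi16, -0.17 ± 0.12, and Gsn, -0.16 ± 0.15, saturated on 3 arrays in Cy5) and 16 on both sides (median 0.01).

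**Figure D5:**
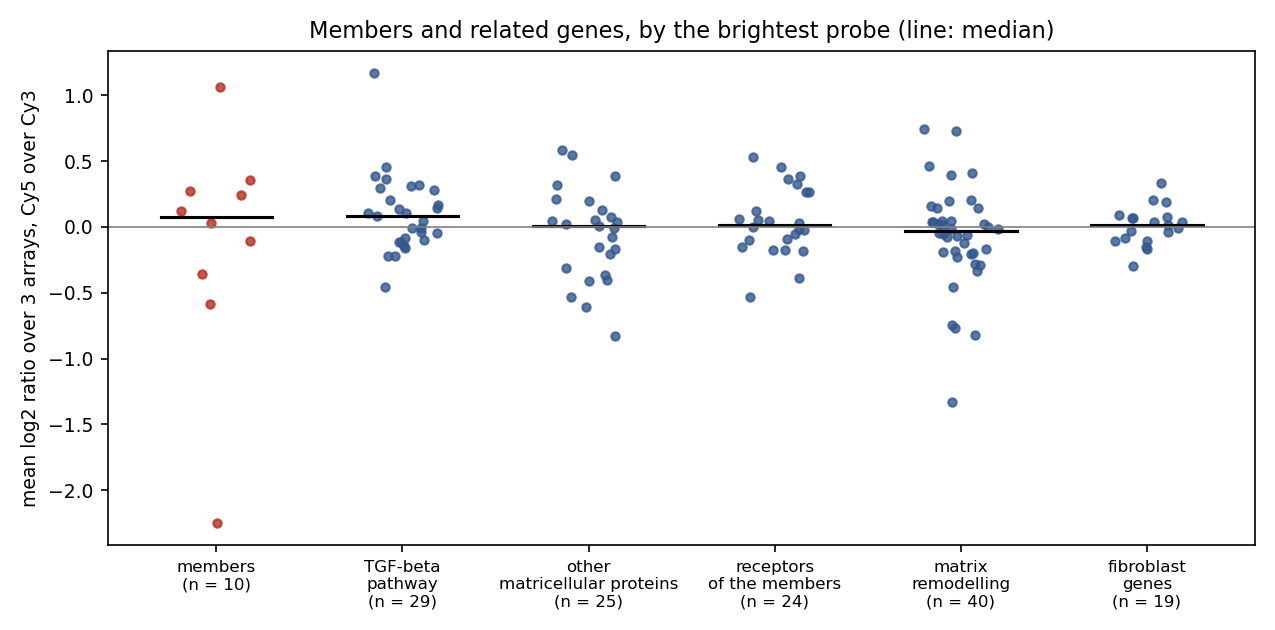
Mean log2 ratio Cy5 over Cy3 over 3 arrays of the 10 genes and of 5 lists of related genes (1 point a gene, representative probe, line at the median, n in the axis labels). The medians of all lists lie between -0.03 and 0.08, and Spon2 at -2.25 lies below every gene of the 5 lists.

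Markers of the heart and of other cells were read in the same channels. Summed signals of markers were formed after the common levelling of the arrays, and they differ from sums of processed signal. The cardiomyocyte markers Myh6, Actc1, Tnnt2, Ryr2 and Myl2 were well above background on all arrays, with 4 of the 5 probes saturated on some array. Of the 5, 2 were brighter in Cy3 on each array, Tnnt2 and Myl2, on probes saturated on 3 arrays in both channels, for which no ratio is given. The other 3 changed sign, with Myh6 at 0.03, -0.48 and 1.45 on a probe saturated on 1 array in each channel. Of 7 fibroblast markers, 7 changed sign between arrays (median 0.04). Their summed levelled signal, most of it from Dcn, was 121944 to 145602 units in Cy3 and 119768 to 158524 units in Cy5. Of 5 macrophage and leukocyte markers, 1 was brighter in Cy3 on all arrays and 4 changed sign (summed signal 8034 to 11526 units in Cy3 and 9097 to 10495 units in Cy5). Neither list had a common direction. Of 5 tested tendon and valve markers, 2 were brighter in Cy3 on all arrays, Comp and Scx, which had log2 ratios of -1.11, -0.43 and -0.90 (summed signal 4359 to 6504 units in Cy3 and 3119 to 3688 units in Cy5). Nppa was brighter in Cy3 on all arrays at -0.89, -0.61 and -0.82. Myl7 and Sln swung from 3.41 and 3.69 on array 2 to -1.27 and -1.15 on array 3, and Myl4 read -0.12, 1.41 and 0.23. The summed signal of the 4 atrial markers, nearly all of it from Nppa, was 79973 to 121208 units in Cy3 and 45377 to 70727 units in Cy5. Of the 3 tested fat markers, only 1 was well above background throughout, Cfd, which swung from 2.26 on array 1 to -1.91 on array 3. The red cell markers Hba-a1 (0.96, 0.96 and -0.02) and Alas2 (0.63, 1.04 and -0.32) were brighter in Cy5 on arrays 1 and 2 and in Cy3 on array 3, with the Hba-a1 probe saturated in Cy5 on 2 arrays. Of 4 smooth muscle and myofibroblast markers, 3 changed sign and Cnn1 (calponin) was brighter in Cy5 at 0.90, 0.43 and 0.34 (summed signal 24097 to 25319 units in Cy3 and 19826 to 38266 units in Cy5). The 4 endothelial and the 4 tested skeletal muscle markers all changed sign between arrays, with medians of -0.16 and 0.06. The part of these tissues in the ratios of Spon2, Ctgf and Spp1 was not tested.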

How the data were processed

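RNA of heart pools was hybridised to 3 two-colour Agilent arrays, and the authors deposited the Agilent Feature Extraction 9.1.3.1 output of each. Its processed signal intensities, as deposited, are background-subtracted and dye-normalised (linear and lowess) within each array. The deposited log10 ratio is Cy5 over Cy3 of these signals, and the deposited p-value belongs to a spot on 1 array. A second table deposited by the authors held the same log10 ratios, apart from 1 missing value. Of 43379 gene spots per array, 28942 to 30269 were well above background in Cy3 and 30512 to 30810 in Cy5, and 4 to 21 outlier spots were left out. The number of arrays limits the precision.

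Log2 ratios were formed from these and averaged over the spots that carry one probe. Probes with a geometric mean signal of at least 20 were fitted with limma 3.58.1 in R 4.3.3 (intercept against 0, eBayes with intensity trend, two-sided, Benjamini-Hochberg over 29576 probes). The methods describe pools of littermate hearts and 3 biological replicates, which would mean separate WT pools, whereas the labels speak of a reference pool, so both readings are kept. The probe with the highest mean signal represented a gene. Current symbols came from RefSeq by accession for 24844 probes. Overlap of channels was read after Aquantile levelling. The fit was also run on simulated data, in which the signs of the residuals were shuffled within each probe. That removes effects shared by a whole array, so nothing about the calls is read from it.

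The 10 genes and all lists were chosen with earlier results of these data known. Named were all 10 genes, Lrrc10, up to 3 genes per list and direction with the largest mean ratio among those well above background with 1 sign on all arrays, and the 5 genes nearest to Spon2. A gene that this rule also named is not reported here. Single markers, 4930564B18Rik and the genes called without array 3 were named after their values were seen. Alternatives covered the signal minimum, background correction, normalisation, choice of probe, saturation, moderation, the methods' t-test, the second table and each array left out. The array files name no genome build, so no coordinates are given.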

Additional observations from a re-analysis of the deposited data

How the results depend on the processing

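By its representative probe or the mean of its probes, Spon2 kept a mean log2 ratio below 0 under all alternatives (-3.04 to -1.35). Its second probe alone averaged -1.09 without array 2, -0.82 with normexp and loess and -0.67 with normexp and median centring. In each of these settings that probe was above 0 on array 3. Spp1 kept a mean above 0 (0.14 to 1.37), but with normexp and median centring it lay under the median of all probes. Ctgf ranged from -0.71 to 0.19 and was above 0 only with normexp and median centring, a setting in which the median of all probes moved to 0.15 and the values of Sparc, Thbs4, Ctgf and Spp1 were 0.65, 0.35, 0.19 and 0.14. With that setting Cy5 was the brighter channel on all arrays for 6 of the 10 genes and Cy3 for 1, and with normexp and loess Cy3 was for 1. Shares over all genes were not counted in these settings, so nothing is read from these counts. The causes were not tested. The median over the 10 genes ranged from -0.11 to 0.24. limma called 0 probes in Cy5 without a signal minimum, and 1 with a minimum of 50 or with normexp and loess. Of 29576 tested probes, the methods' t-test passed 594 in Cy5 and 650 in Cy3 unadjusted and 0 after Benjamini-Hochberg adjustment.

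Leaving out 1 array each, those of the 10 genes brighter on all remaining arrays were 2 in Cy5 in each case and 3 to 4 in Cy3. The share over all genes was not counted there either, so nothing is read from these counts. In these fits limma called 0 to 409 probes in Cy5 and 0 to 134 in Cy3, and 0 to 4 related genes. The highest counts of limma calls came without array 3, where the called related genes included Loxl4 (1.36, limma adjusted p = 0.0045), Fbn2 (-2.03, adjusted p = 0.0053, on a dim probe not well above background throughout) and Eln (-1.07, adjusted p = 0.038). No paired analysis was possible because no further pairing is left beyond that of the limma fit, in which the ratio of each array already pairs its Cy5 pool with its Cy3 pool. Tnc and Spp1 were read near the background.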
